A study of Mus musculus with 6 samples.

Results

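Smooth muscle cells, the pericytes that wrap small vessels and the myofibroblasts of healing wounds share a contractile machinery, and 9 genes that mark these cells were followed through the healing of excisional skin wounds in mice. Acta2, Tagln, Myl9, Cnn1, Myh11 and Lmod1 belong to the contractile apparatus, and Rgs5, Cspg4 and Notch3 are genes of the mural cells of vessels. The 9 were chosen by name. Each was found with 1 probe set carrying that symbol alone, among 19938 genes measured. Total RNA of skin from male mice of the inbred strain BALB/c, aged 5 to 6 weeks, was read out on Affymetrix mouse gene arrays. There were 3 groups of 2 arrays: intact skin, skin taken on day 1 after wounding and skin taken on day 4. Wounded mice carried 2 full-thickness punch wounds of 4 mm that reached down to the fascia, and the tissue was collected with an 8 mm punch. By these diameters a wound as made equals 25% of the biopsy area, the rest being surrounding skin. The share on the day of collection is not known from them. No genetic alteration or drug treatment is named for any group.

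Smooth muscle α-actin (Acta2) assembles with the smooth muscle myosin heavy chain (Myh11) and its regulatory light chain (Myl9) into contractile filaments, which calponin (Cnn1), transgelin (Tagln) and leiomodin 1 (Lmod1) bind or help to build. In intact skin these genes are active in the muscle of vessel walls and in the arrector pili muscles of the hair follicles. In healing wounds, fibroblasts that take up Acta2 become myofibroblasts and draw the wound edges together. Serum response factor with its myocardin-type partners drives most of these genes through the CArG box, and transforming growth factor β acts upstream. Pericytes carry Notch3, the receptor that answers Jagged ligands of the neighbouring endothelium, the proteoglycan NG2 (Cspg4) and Rgs5, which shuts down G-protein signals.

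The values are log2 intensities made by the authors with RMA. All 9 probe sets lay above the lower quartile (5.29 to 5.37) of every array. Over all genes the 2 arrays of a group correlated with r of 0.9967 in intact skin, 0.9891 on day 1 and 0.9861 on day 4. The keratinocyte gene Krt5, which checks the labelled tissue, had a mean log2 intensity of 12.64 in intact skin, 12.66 on day 1 and 12.68 on day 4. Over 6 keratinocyte markers, Krt5 among them, the summed intensity was 22052 to 22374 in intact skin. It was 26369 to 27659 on day 1 and 27845 to 29558 on day 4. Of the 6, 3 were called higher and 0 lower on each day, though 1 was lower on day 4 under cyclic loess or median centring. Calls are two-sided limma tests with Benjamini-Hochberg adjusted p under 0.05 over all genes, and 95% intervals come from the same fit. The replicates are labelled biological, but which animals or pools they came from is not stated, so n counts arrays. The p-values rest only on the spread between these samples, that of the gene itself and, through limma, that of all genes. Wounding changed much of the transcriptome. On day 1, 29.3% of all genes passed against intact skin, on day 4 26.9%, and between the days 2.23%. The split of these calls depended on scaling: on day 4, 2958 genes were higher and 2413 lower as deposited, but 2574 and 3345 after median centring. Between the days 217 were higher on day 4 and 227 lower, against 195 and 310 after cyclic loess and 184 and 284 after median centring.

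The 9 genes did not move as a block on day 1, with 4 changes above 0 and 5 below. On day 4, 8 of the 9 had a change above 0 against intact skin, and 8 against day 1. After quantile normalization, cyclic loess or median centring it was 6 or 7 against intact skin and 7 against day 1. Of all 19938 genes, 8806 and 10354 had a change above 0 in these 2 comparisons. On day 1 Rgs5 rose 1.45-fold while Myl9 and Cspg4 fell, so 1 member was called higher and 2 lower of 9, where 14.7% and 14.6% of all genes were. On day 4 Rgs5, Myh11 and Acta2 were higher than in intact skin by 1.74-fold, 1.27-fold and 1.21-fold and Cspg4 was 1.42-fold lower. That made 3 higher and 1 lower, where 14.8% and 12.1% of all genes were. Between the days Myl9 alone of the 9 passed, 1.46-fold higher on day 4, where 1.09% of all genes were called higher and 1.14% lower. The median log2 change of the 9 was −0.02 on day 1, 0.18 on day 4 and 0.27 between the days, beside −0.04, −0.03 and 0.01 for all genes. Because the arrays of intact skin enter both wound comparisons, and those of each wound day 2 comparisons, the changes are not independent of one another. Without regard to the test, day 1 and intact arrays did not overlap for 3 members that were higher (Cnn1, Myh11 and Rgs5) and 4 that were lower (Tagln, Myl9, Cspg4 and Notch3), where 29% and 38.2% of all genes, 67.3% together, did not overlap. On day 4 it was 5 higher (Acta2, Cnn1, Myh11, Lmod1 and Rgs5) and 1 lower (Cspg4), where it was 30% and 36% of all genes, 66% together. Between the days 6 were higher without overlap (Acta2, Tagln, Myl9, Myh11, Rgs5 and Notch3) and 0 lower, where it was 25.6% and 22% of all genes, 47.6% together. A moderated F test over the 3 groups passed for 5 of the 9 (Acta2, Myl9, Myh11, Rgs5 and Cspg4), where 30.7% of all genes passed.

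**Figure D1:**
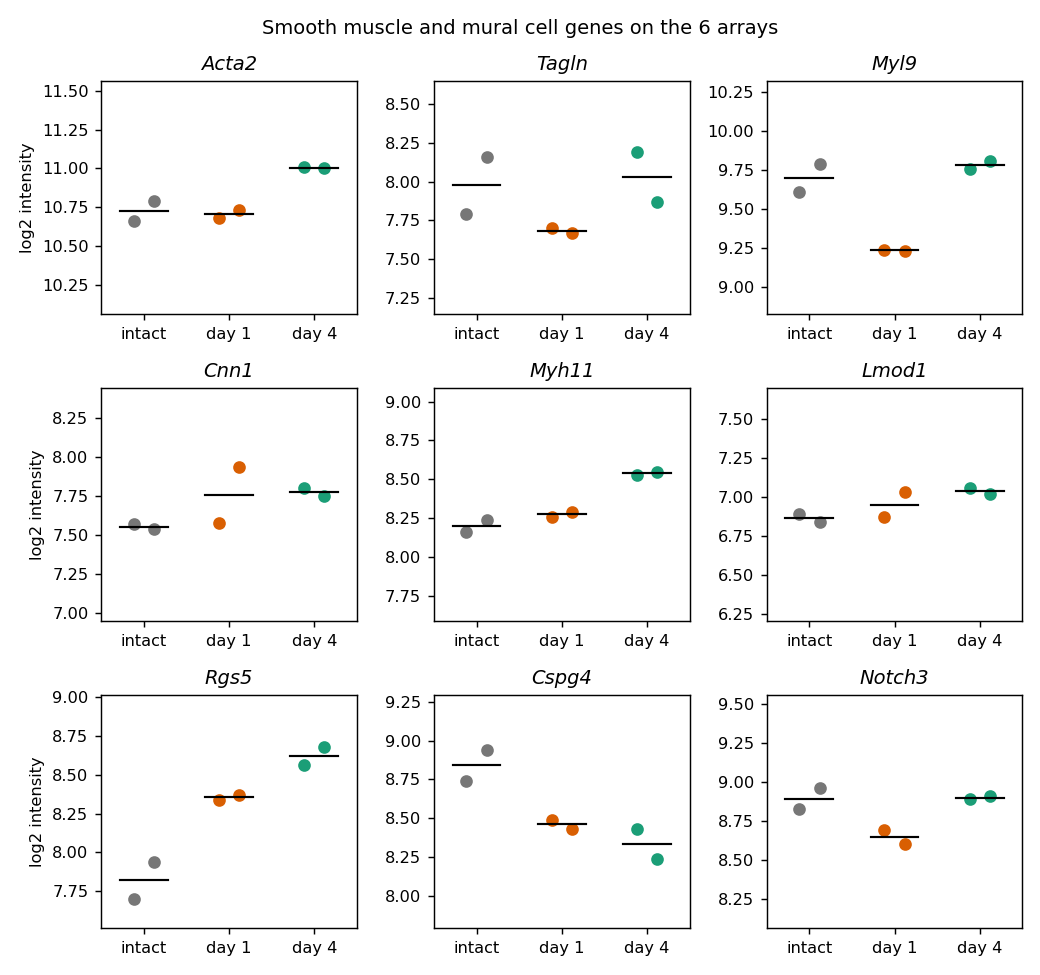
Log2 intensity of the 9 genes on each of the 6 arrays, with a panel per gene and the arrays grouped as intact skin, day 1 and day 4; points are arrays and the short bars are group means of 2 arrays. Rgs5 sits at 7.70 and 7.94 in intact skin and at 8.56 and 8.68 on day 4, while Cspg4 goes from 8.74 and 8.94 down to 8.43 and 8.24.

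Acta2, which encodes the actin that defines a myofibroblast, read 10.66 and 10.79 on the arrays of intact skin, 10.68 and 10.73 on day 1 and 11.01 and 11.00 on day 4. The day 1 values fell inside the range of intact skin, and both day 4 values lay above the other 4. The day 4 change was 0.28 (95% interval 0.09 to 0.47), which is 1.21-fold, with a limma adjusted p of 0.0416. This call was lost under cyclic loess, median centring and a fit of the 2 groups alone, and in all 6 fits that left out an array (adjusted p 0.0222 to 0.203 over the 15 alternatives). On day 1 the difference from intact skin was −0.02 (95% interval −0.21 to 0.17; adjusted p 0.873). Between the days it was 0.30, with an adjusted p of 0.112. Actins share nearly all of their amino acid sequence. The cardiac actin Actc1, a skeletal muscle marker here, rose 5.7-fold by day 4 (adjusted p 3.00e-04), and whether its transcripts reach the Acta2 probes was not tested.

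Myh11, the myosin heavy chain restricted to smooth muscle, read 8.16 and 8.24 in intact skin, 8.26 and 8.29 on day 1 and 8.53 and 8.55 on day 4. As for Acta2, the day 4 arrays were the highest and did not overlap the others. The day 4 rise was 0.34 (95% interval 0.17 to 0.51; 1.27-fold; adjusted p 0.0171). It passed under all 9 processing alternatives but was lost without either day 4 array or either intact array, with an adjusted p of up to 0.104. The day 1 difference was 0.08 and did not pass (adjusted p 0.483), nor did the step of 0.27 from day 1 to day 4 (adjusted p 0.123). Across the 6 arrays Acta2 and Myh11 had a Pearson r of 0.96, a description over arrays that share their groups.

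Myl9, the light chain whose phosphorylation triggers contraction, took another course. It read 9.61 and 9.79 in intact skin, 9.24 and 9.23 on day 1 and 9.76 and 9.81 on day 4. The day 1 arrays were the lowest, and those of day 4 overlapped intact skin. On day 1 it was 1.38-fold lower than in intact skin (log2 change −0.47, SE 0.09; adjusted p 0.00868). That call was lost without the second day 1 array or the second intact array (adjusted p up to 0.0529). From day 1 to day 4 it rose by 0.55 (95% interval 0.34 to 0.76; adjusted p 0.0389), but in a fit of those 4 arrays alone, and in all 6 fits that left out an array, the rise missed the threshold (adjusted p up to 0.19). On day 4 it differed from intact skin by 0.09, with an interval of −0.12 to 0.29 (adjusted p 0.505).

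The remaining contractile genes did not pass in any comparison. Tagln, the actin-bundling transgelin, read 7.79 and 8.16 in intact skin, 7.70 and 7.67 on day 1 and 8.19 and 7.87 on day 4. Both day 1 arrays lay below the other 4, as for Myl9, and the replicates of intact skin and of day 4 lay far apart. The changes were −0.29 on day 1 (95% interval −0.66 to 0.08; adjusted p 0.208) 0.06 on day 4 (adjusted p 0.823) and 0.35 between the days (adjusted p 0.289). Cnn1, whose protein restrains the myosin motor, read 7.57 and 7.54 in intact skin, 7.58 and 7.94 on day 1 and 7.80 and 7.75 on day 4. All wound arrays were above intact skin, and the second day 1 array was the highest. Its day 1 change of 0.21 (adjusted p 0.26) became a call without the first day 1 array (0.39; adjusted p 0.0366), and on day 4 the change was 0.22 (95% interval −0.08 to 0.52; adjusted p 0.232). Lmod1, which nucleates actin filaments in smooth muscle, read 6.89 and 6.84, then 6.87 and 7.03, then 7.06 and 7.02, in the same order of groups. Its day 4 arrays lay above intact skin, by 0.18 (95% interval −0.03 to 0.38; adjusted p 0.171).

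Promoter sequence is shown for Acta2 and Myl9 because they are contractile members that were called and carried a CArG-type element upstream. RefSeq sequences (assembly GRCm38.p6) were found for 7 of the 9 genes, with Tagln and Myh11 not in the table. Each sequence below is the 250 bases before the annotated start, 5′ to 3′ on the gene's strand, from chr19:34255374-34255623 (minus strand) for Acta2 and chr2:156775214-156775463 (plus strand) for Myl9. Capitals mark a CArG box (CC, 6 bases that are A or T, GG) or a CArG-like element, in which 1 of those 6 central bases is C or G.
Acta2: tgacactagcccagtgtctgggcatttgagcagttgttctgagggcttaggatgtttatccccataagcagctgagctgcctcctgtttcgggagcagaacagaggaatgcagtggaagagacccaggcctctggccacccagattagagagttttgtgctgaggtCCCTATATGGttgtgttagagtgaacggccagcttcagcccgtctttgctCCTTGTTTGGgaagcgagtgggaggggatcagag
Myl9: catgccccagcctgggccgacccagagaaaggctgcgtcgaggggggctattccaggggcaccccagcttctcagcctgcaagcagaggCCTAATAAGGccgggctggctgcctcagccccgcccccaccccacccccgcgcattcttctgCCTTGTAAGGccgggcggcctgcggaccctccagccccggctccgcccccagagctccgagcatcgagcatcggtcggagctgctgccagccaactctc
Positions count back from −1, the base before the start, to the first base of a match. Acta2 held CArG-like elements at −84 and −34, and Myl9 a CArG box at −161 with a CArG-like element at −99. In windows of 300 bases (250 before and 50 after the start) and on either strand, the CArG box was found in 1.64% and the CArG-like element in 8.46% of 32544 mouse promoters. Among the 7 members with a sequence 1 held a CArG box and 2 a CArG-like element. The core of the Notch partner RBPJ (TGGGAA) occurred in Acta2 at −27, overlapping the CArG-like element, and in 25.4% of all promoters. The TEAD core (GGAATG) occurred in Acta2 at −146 and Lmod1 at −130, and in 14.6% of all promoters. Cnn1, Rgs5, Cspg4 and Notch3 held none of these 4 motifs in the window. A match is a run of letters and no measured binding.

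Rgs5 had the largest change among the 9. It read 7.70 and 7.94 in intact skin, 8.34 and 8.37 on day 1 and 8.56 and 8.68 on day 4. All 4 wound arrays were above both intact arrays, and the day 4 arrays above those of day 1. The rise was 0.54 on day 1 (SE 0.10; 1.45-fold; adjusted p 0.00965) and 0.80 on day 4 (95% interval 0.56 to 1.04; 1.74-fold; adjusted p 0.00276). The day 4 call held in all 15 alternatives, with changes of 0.68 to 0.92. On day 1 the call was lost without the second day 1 array or the first intact array (adjusted p up to 0.0607). The step from day 1 to day 4 was 0.27, with an adjusted p of 0.23.

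Cspg4, which encodes the NG2 proteoglycan of pericytes, moved opposite to Rgs5. It read 8.74 and 8.94 in intact skin, 8.49 and 8.43 on day 1 and 8.43 and 8.24 on day 4. No wound array reached the level of an intact one. It was 1.3-fold lower on day 1 (log2 change −0.38, SE 0.10; adjusted p 0.0366) and 1.42-fold lower on day 4 (log2 change −0.51; 95% interval −0.76 to −0.25; adjusted p 0.0154). The day 1 call was lost under cyclic loess, with the replicate number as a block and without any of the 4 arrays compared (adjusted p up to 0.173). The day 4 call was lost without the second day 4 array or the second intact array (up to 0.0867). Between the days Cspg4 differed by −0.13 (adjusted p 0.58), which did not pass. Over the 6 arrays Rgs5 and Cspg4 had a Pearson r of −0.88.

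Notch3 read 8.83 and 8.96 in intact skin, 8.69 and 8.60 on day 1 and 8.89 and 8.91 on day 4. Its day 1 arrays were below all others, as for Myl9 and Tagln. The day 1 change of −0.25 (95% interval −0.45 to −0.05) had an adjusted p of 0.0627 and passed after quantile normalization, median centring or removal of the dimmest genes. On day 4 it differed from intact skin by 0.01 (adjusted p 0.972), with a sign that depended on the scaling, and from day 1 by 0.26 (adjusted p 0.166). Across the arrays its Pearson r was 0.97 with Myl9 and 0.82 with Tagln, again as a description.

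**Figure D2:**
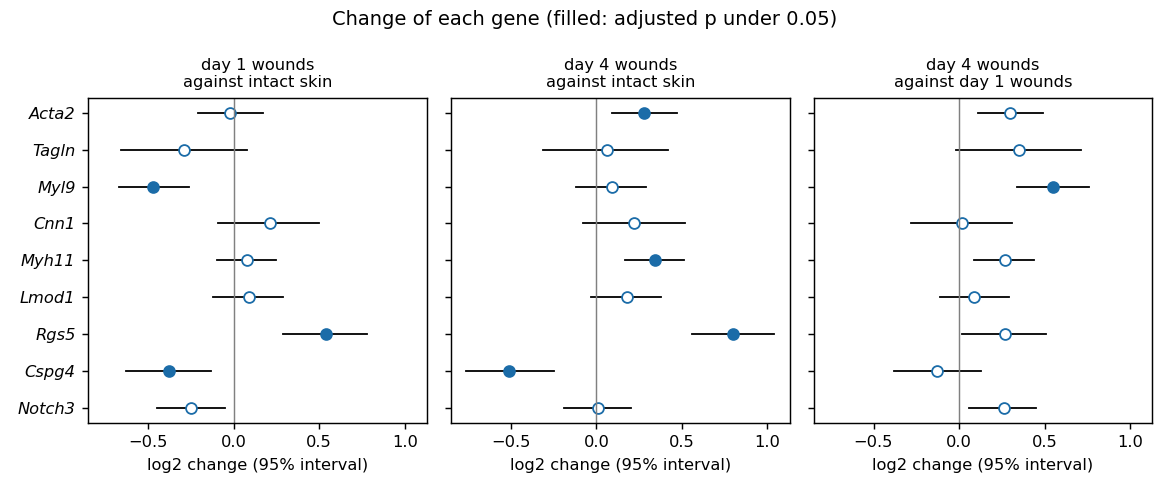
Log2 change of each of the 9 genes in the 3 comparisons, with 95% intervals from the limma fit over 6 arrays; filled markers passed at an adjusted p under 0.05. The interval of Rgs5 on day 4 (0.56 to 1.04) lies above 0, and those of Cspg4 on day 4 (−0.76 to −0.25) and Myl9 on day 1 (−0.67 to −0.26) lie below it.

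Other smooth muscle contractile and actin-binding genes moved both ways as well. Of 27 measured, 8 rose and 7 fell on day 1, and 5 rose and 4 fell on day 4, with median log2 changes of 0.03 and 0.12. Of all genes 14.7% rose and 14.6% fell on day 1, and 14.8% rose and 12.1% fell on day 4. These shares also stand beside the counts of the lists below. The balance depended on the scaling: on day 1, 6 rose and 9 fell after quantile normalization and 10 rose and 7 fell under cyclic loess, and on day 4, 4 rose and 5 fell after median centring. Desmin (Des), an intermediate filament of all muscle, was 2.22-fold higher on day 1 (adjusted p 0.00119) and 1.78-fold higher on day 4 (adjusted p 0.00504). Smoothelin (Smtn), an actin-binding protein of contractile smooth muscle, was 2.72-fold lower on day 1 (adjusted p 0.00178) and 2.37-fold lower on day 4 (adjusted p 0.00386). Smtn read 10.54 and 10.65 in intact skin, 9.35 and 8.95 on day 1 and 9.55 and 9.15 on day 4, so no wound array came near the intact ones. Pdlim3, a protein of muscle Z-lines, was 2.82-fold higher on day 1 (adjusted p 0.00467), and the tropomyosin Tpm2 was 1.33-fold higher. Pgm5, a protein of muscle adhesion sites, rose 1.71-fold by day 4 (adjusted p 0.00375) and was the only gene of the list called between the days.

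Markers of skeletal muscle moved with Des and Pdlim3, which that tissue also expresses. Of 15 skeletal muscle markers 12 rose and 0 fell on day 1, and 8 rose on day 4. Their summed intensity was 23445 to 23880 in intact skin, 38581 to 39635 on day 1 and 28108 to 33389 on day 4. The fall of Smtn went with that of hair genes, of which 8 of 9 were called lower on day 1 and 3 on day 4. On day 4 all 9 hair genes lay below intact skin without overlap, as 36% of all genes did. Their median log2 change was −3.59 on that day, and their mean log2 intensities on the 2 day 4 arrays were 9.95 and 6.32. Their summed intensity was 34516 to 34767 in intact skin, 667 to 4500 on day 1 and 821 to 14061 on day 4. The part of either tissue in these changes was not tested, and in whole skin fewer cells of a type and less RNA per cell cannot be told apart. The summed intensity of the 9 members was 4306 to 4780 in intact skin, 4165 to 4256 on day 1 and 5093 to 5144 on day 4.

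Of 13 other markers of pericytes and mural cells 4 rose and 3 fell on day 1, and 4 rose and 1 fell on day 4. None was called between the days. Of all genes 14.6% fell on day 1 and 12.1% on day 4. The median log2 changes of the 13 were 0.17 and 0.25, beside −0.04 and −0.03 for all genes. Under cyclic loess 6 rose and 2 fell on day 1, and after median centring 3 rose and 2 fell on day 4. Ndufa4l2, a mitochondrial protein abundant in pericytes, was 1.89-fold higher on day 1 (adjusted p 0.0013) and 2.32-fold higher on day 4 (adjusted p 7.13e-04), in all 15 alternatives. Pdgfrb, the receptor by which pericytes are recruited, was 1.95-fold and 2.04-fold higher (adjusted p 0.00734 and 0.00692), and fibroblasts express it as well. Cox4i2, a respiratory subunit found in pericytes, fell by 0.59 on the log2 scale on both days. Among endothelial markers 9 of 12 rose on day 1 and 11 of 12 on day 4, and none fell. Their summed intensity went from 3184 to 3491 in intact skin to 5659 to 6224 on day 1 and 4807 to 5630 on day 4. Their part in the rise of Rgs5 was not tested.

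Within the PDGF family, whose B chain from endothelium holds pericytes on the vessel, 4 of 6 genes rose on each day and none fell. Pdgfra, the receptor of fibroblasts, was 3.34-fold higher on day 1 and 2.69-fold on day 4 (adjusted p 0.00136 and 0.00364). The ligand Pdgfc was 1.71-fold and then 2.15-fold higher (adjusted p 0.0017 and 6.96e-04). Pdgfb itself was 1.31-fold and 1.39-fold higher (adjusted p 0.0403 and 0.0226), and each call was lost in 3 of 6 fits that left out an array. Of 10 fibroblast markers 6 rose and 2 fell on day 1, and 7 rose and 1 fell on day 4, and their part was not tested.

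Of 10 other genes of the Rgs family 3 rose and 1 fell on each day, and under cyclic loess 5 rose and 1 fell on day 1. On each day 9 of the 10 had a change above 0 (8 on day 4 after median centring), with medians of 0.28 and 0.24 beside −0.04 and −0.03 for all genes. Rgs18 and Rgs1, regulators known from blood cells, were 2.45-fold and 2.51-fold higher on day 1 (adjusted p 0.0017 and 0.00228), and Rgs3 was 1.32-fold lower (adjusted p 0.00937). All 10 macrophage markers rose on both days, with median log2 changes of 1.87 and 2.14, and their part in the rise of the Rgs genes was not tested.

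Around Notch3, more genes of the Notch pathway were called lower than higher. Of 17 other genes 2 rose and 7 fell on day 1, 2 rose and 4 fell on day 4, and none was called between the days. Called or not, 8 of the 17 had a change above 0 on day 1 and 5 on day 4. Their median log2 changes were −0.01 and −0.18, beside −0.04 and −0.03 for all genes. After median centring 1 rose and 5 fell on day 4. Heyl, a Notch target gene of vascular smooth muscle, read 8.97 and 8.88 in intact skin, 7.02 and 7.0 on day 1 and 7.31 and 7.0 on day 4. It was 3.77-fold lower on day 1 (adjusted p 1.50e-04) and 3.41-fold lower on day 4 (adjusted p 3.10e-04). The target Hes1 fell by 0.54 and 0.50 on the log2 scale, and Notch1, a receptor strong in epidermis and hair follicles, was 2.04-fold lower on day 1 (adjusted p 0.00139). In the other direction Rbpj, the DNA-binding partner of all Notch receptors, was 2.03-fold higher on day 1 (adjusted p 5.75e-04) and 1.89-fold on day 4 (adjusted p 0.00117). Numb, an inhibitor of Notch, fell by 0.66 and 0.55. The ligand Jag1, which activates Notch3 in mural cells, fell by 0.50 on day 1 (adjusted p 0.0312), a call lost in 3 of 6 fits that left out an array. Hair genes fell on the same arrays, with the summed intensities given beside Smtn, and their part was not tested.

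**Figure D3:**
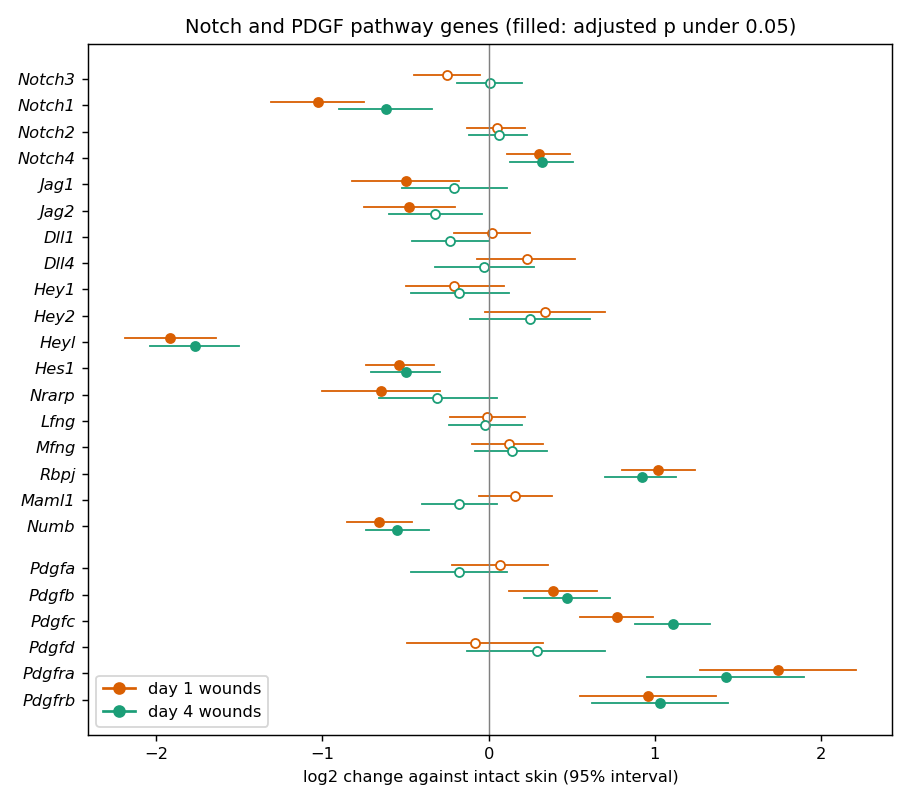
Log2 change on day 1 and day 4 against intact skin for genes of the Notch pathway and the PDGF family, each point the difference of means of 2 arrays with its 95% interval and filled where the adjusted p was under 0.05. Heyl lies at −1.92 and −1.77 and Pdgfra at 1.74 and 1.43, while Rbpj at 1.02 and 0.92 moves against Heyl.

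In a list of 23 regulators of the contractile genes, 8 rose and 3 fell on day 1, and 5 rose and 2 fell on day 4. Of all genes 14.7% rose and 14.6% fell on day 1, and 14.8% rose and 12.1% fell on day 4. The median log2 changes of the 23 were 0.16 and 0.06, beside −0.04 and −0.03 for all genes. The receptor Tgfbr2 was 2.08-fold higher on day 1 (adjusted p 0.00258), and on day 4 the ligand Tgfb3 was 1.9-fold higher (adjusted p 0.00104) and Tgfb1 1.74-fold higher (adjusted p 0.00502). Smad7, the inhibitor that the pathway itself induces, was 2.18-fold lower on day 1 and 2.26-fold lower on day 4 (adjusted p 0.00225 and 0.00249). Serum response factor (Srf) and the myocardin-type factors Myocd, Mrtfa and Mrtfb gave no call in any comparison. The day 4 difference was −0.26 for Srf (adjusted p 0.116), 0.06 for Myocd (0.748), 0.01 for Mrtfa (0.977) and −0.09 for Mrtfb (0.592). Mef2c, a muscle transcription factor, was 1.6-fold higher on day 1 (adjusted p 0.00509). Fhl2, a cofactor of Srf, fell by 0.61 on day 1 (adjusted p 0.0051). Between the days Fhl2 rose by 0.75 and Smad3, the signal carrier of the TGF-β receptor, fell by 0.60 (adjusted p 0.0299 and 0.0442), and both calls between the days were lost in all 6 fits that left out an array.

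Among activated fibroblast and myofibroblast genes most of those called were higher. Of 17 measured 10 rose and 1 fell on day 1, 13 rose and 0 fell on day 4, and 3 rose between the days, with median log2 changes of 0.36, 0.67 and 0.35. Cthrc1, a secreted protein of matrix-forming fibroblasts, read 7.85 and 7.85 in intact skin, 8.06 and 8.05 on day 1 and 9.62 and 9.67 on day 4. It was 3.47-fold above intact skin on day 4 (adjusted p 7.39e-05) and 3.01-fold above day 1 (adjusted p 0.00437), in all 15 alternatives. Tenascin C (Tnc), a matrix protein of healing tissue, was 3.34-fold higher on day 1 (adjusted p 7.99e-04), and Thbs2, a matricellular thrombospondin, 2.68-fold higher on day 4 (adjusted p 2.93e-04). The collagen chain Col5a2 was 2.01-fold higher on day 4 (adjusted p 9.41e-04). Itga11, the collagen-binding integrin of myofibroblasts, was below intact skin on day 1 by 0.60 and above day 1 on day 4 by 0.80 (adjusted p 0.0141). That last call was lost in 5 of 6 fits that left out an array.

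**Figure D4:**
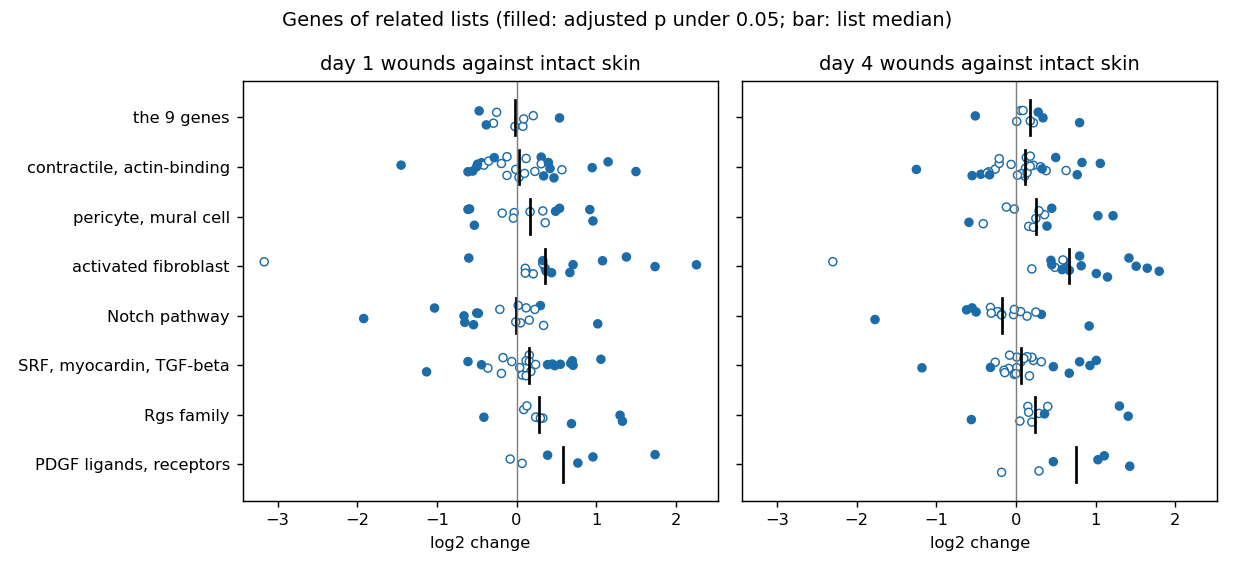
Log2 change against intact skin, on day 1 (left) and day 4 (right), of the 9 genes and of every measured gene in the 7 lists around them; points are genes, filled where the adjusted p was under 0.05, and bars are list medians. The activated fibroblast genes have medians of 0.36 and 0.67, and the contractile and actin-binding genes of 0.03 and 0.12.

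The genes whose levels followed Acta2 most closely over the 6 arrays, among 2167 genes with a range of at least 1 on the log2 scale, were Sfrp2 (r = 0.9746), Tnni1 (0.9606), Myh3 (0.9575), Aldh1a3 (0.9542) and Lrrc17 (0.9503). Acta2 itself spanned 0.35 on the log2 scale. Sfrp2, a secreted modulator of Wnt signals, was 8.85-fold above intact skin on day 4. Myh3, the embryonic myosin of forming skeletal muscle, was 5.03-fold above it. For Rgs5, which spanned 0.98, the closest were Lipa (r = 0.9989), Gatm (0.9985), Slc37a2 (0.9968), Arhgef6 (0.9951) and Otulinl (0.9951). Lipa, the lysosomal acid lipase, was 2.33-fold higher on day 1 and 3.46-fold higher on day 4. With 6 arrays in 3 groups such correlations describe group means above all, and no test goes with them.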

How the data were processed

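Total RNA of 6 skin samples was hybridised to Affymetrix arrays, and RNA integrity numbers were 7.7 to 9.1 per the labels. The authors deposited log2 values for each probe set; RMA is named in the submitters' processing notes, with its version not given in the sources used here. This method brings arrays to a common distribution, so a shift of most genes would be reduced. Background correction could not be varied. Of 35556 probe sets 21789 carried 1 gene symbol and 1621 several, which were left out; for 999 genes the brightest of several was used, which left 19938 genes. The number of arrays limits the precision.

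Group means were fitted to all 6 arrays with limma 3.58.1 in R 4.3.3 (eBayes, 3 residual and 3.4 prior degrees of freedom). The fit was also run on simulated arrays with independent noise and few changed genes, a setting unlike these data. Alternatives were quantile normalization, cyclic loess, median centring, a mean-variance trend, a robust prior, only the 2 groups compared, removal of the dimmest 30%, the mean of probe sets, a replicate block, and leaving out each array. Of 209 list genes 198 were measured. Named are all members, up to 4 genes per list and comparison with the smallest p, genes whose role bears on a member, and the 5 closest patterns. The members and lists were chosen with earlier results of these data known. The CArG-like search was added after the CArG search was seen.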

Additional observations from a re-analysis of the deposited data

Results flagged for a closer look

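Of 444 genes called between the 2 wound days by limma, which is 2.23% of all genes, 8 are named here. They belong to the 9 members, the 7 lists around them or the muscle actin Actc1, which was chosen after its values were seen. The lists hold 27, 13, 17, 17, 23, 10 and 6 measured genes, with some genes in more than 1. Other cell type markers and the genes closest to Acta2 or Rgs5 were not considered for the 8. Of the 15 skeletal muscle markers, Actc1 among them, 2 had a change above 0 between the days and 13 below. Their median log2 change was −0.39, with 1 called higher and 2 lower. Adjusted p values are over all genes. Actc1, an actin of heart and developing muscle, differed by 2.25 on the log2 scale (0.27 on day 1 and 2.51 on day 4 against intact skin; adjusted p 0.00816) and Cthrc1 by 1.59 (0.21 and 1.80; 0.00437). Itga11 differed by 0.80 (−0.60 and 0.20; 0.0141), Fhl2 by 0.75 (−0.61 and 0.14; 0.0299) and Myl9 by 0.55 (−0.47 and 0.09; 0.0389). Each of these was called below intact skin on day 1, and none was called against intact skin on day 4. Pgm5 differed by 0.66 (0.12 and 0.77; 0.0428) and Col5a2 by 0.57 (0.44 and 1.01; 0.0418). Smad3 went the other way, with −0.60 (0.45 and −0.15; 0.0442).
In fits that left out an array, the call of Cthrc1 was kept in all 6, that of Actc1 in 5 (lost without the second day 1 array, with an adjusted p of 0.0812) and that of Itga11 in 1. The calls of Myl9, Pgm5, Col5a2, Fhl2 and Smad3 were kept in 0 of 6.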

How the results depend on the processing

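With 2 arrays per group, many calls changed when an array was left out. Leaving out either array of the group not compared gave the same fit as only the 2 groups compared. In that fit each log2 change stayed as it was and only the estimate of the spread changed, so these are not separate checks. On day 1 the count of genes called went from 5842 to between 3149 and 5673, that of members called higher from 1 to between 0 and 2, and of members called lower from 2 to between 0 and 2. On day 4 these counts went from 5371 to between 2246 and 4907, from 3 to between 1 and 2 and from 1 to between 0 and 1. Between the days they went from 444 to between 14 and 184, and from 1 member higher to 0 in each such fit. With only the 2 groups compared, 17 genes were called between the days and 0 members were higher. On day 1, 1 member was called lower under cyclic loess, and 3 after quantile normalization, median centring or removal of the dimmest 30%. On day 4, 2 members were called higher under cyclic loess, median centring or with only the 2 groups compared.

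Replicate numbers are not stated to pair the samples, and deviations of same-numbered arrays correlated with r of 0.01 (intact skin and day 1), 0.02 (intact skin and day 4) and 0.69 (day 1 and day 4). With the replicate number as a block 5864, 5497 and 583 genes were called in the 3 comparisons, and 1 member lower on day 1. No value changed its sign where it was called.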

Other observations

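Lrrc15, a membrane protein listed here with the activated fibroblast genes, ran against that list and is named after its values were seen. It read 12.30 and 12.38 on the arrays of intact skin, 11.40 and 6.95 on day 1 and 10.90 and 9.18 on day 4. Its differences from intact skin, −3.17 on day 1 and −2.30 on day 4, did not pass (limma adjusted p 0.128 and 0.25), with an SE of 1.34. The mean log2 intensity over 9 markers of hair shaft and root sheath was 11.62 and 11.63 in intact skin, 7.88 and 6.05 on day 1 and 9.95 and 6.32 on day 4, in the same order of arrays. On both wound days the second array was the lower, for Lrrc15 and for the hair markers. The 9 members had means of 8.43 and 8.48 on day 1 and 8.69 and 8.65 on day 4.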
